A study of Rattus norvegicus with 30 samples.

Results

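Ribosomal protein genes encode the proteins of the cytosolic ribosome, and they were followed here in the ileum of rats after bariatric surgery. A member was any gene whose symbol began with Rpl or Rps and a number, without the S6 kinases, and which had a transcript cluster of the array named for it alone. For a symbol with several such clusters the one with the brightest mean was used. By this rule 174 of 14557 named genes were members, and 135 of them passed the filter on dim genes and were tested.

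The rats were wild-type male Long-Evans animals of 8 to 10 weeks, with 6 rats in each of 5 groups and 1 array per rat. One group had a bypass of the Roux-en-Y type (RYGB) and another its sham surgery (Sham_RYGB). Another had a vertical sleeve gastrectomy (VSG), in which about 80% of the stomach was transected, and the last groups had the sham surgery for VSG with paired feeding (Sham_VSG_PF) or without it (Sham_VSG). All rats took a liquid diet on the day before surgery and had the abdomen opened. In the sham operation the stomach was pressed with blunt forceps. The series asks about intestinal iron uptake, gut hormones and metabolism, and ribosomal proteins are not its stated subject.

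Values are log2 array signals, so a difference of 1 is a 2-fold change. The median of the arrays ran from 3.10 to 3.25 and their pairwise correlation from 0.959 to 0.99. The labelled tissue fitted its markers: the mean of 5 epithelial markers lay between 9.51 and 10.14 over the 30 arrays, and the mean of 4 ileal enterocyte markers (bile acid carriers) between 10.68 and 11.21. B and plasma cell markers fell into separate ranges, with a mean of 6.88 to 8.14 in 11 arrays and of 4.00 to 4.99 in 19. The 11 arrays were 1 RYGB, 3 Sham_RYGB, 2 VSG, 2 Sham_VSG_PF and 3 Sham_VSG arrays. Fat cell markers were high, with means of 6.31 to 7.33, in 3 RYGB arrays and 1 VSG array, and reached 4.83 at most elsewhere. Since the samples were pieces of tissue, fewer cells of a type and less RNA per cell cannot be told apart.

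Each ribosome has a large subunit, which joins amino acids, and a small subunit, which reads the mRNA. Their proteins, named Rpl and Rps, are made in matched amounts. In mammals their mRNAs begin with a run of pyrimidines (C and T in the gene) right at the transcription start, the TOP motif, through which mTORC1 signalling controls their translation without needing a change in mRNA amount. Mammalian genomes also hold many processed copies of these genes, most of them without introns, so array probes often match more than 1 place. In the small intestine ribosome synthesis is high in the dividing crypt cells.

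The name of the set held only in part. Of the 174 members, 42 had the plain name of a ribosomal protein, 31 of the large and 11 of the small subunit, and all 42 were tested. Another 90 carried a "like" name (Rps23l1), of which 70 were tested, and 38 a pseudogene name (Rpl7-ps3), of which 20 were tested. These 2 kinds are called copies below. The others were 3 paralogs, Rpl7l1, Rps4y2 and Rpl3l, and Rps19bp1, which binds Rps19 and is no ribosomal protein. Rpl3l, known in other mammals as the striated muscle form of Rpl3, had a mean of 1.67 and did not pass the filter. RefSeq listed 133 members as protein coding, 34 as pseudogenes and 2 as transcribed pseudogenes, and 5 had no entry. A further 24 plain names, among them Rps19, Rps24 and Rpl17, occurred only on clusters that name several genes and are not members. Signals of a gene and of its near-identical copies may overlap on the array.

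A long pyrimidine run lay at the start of most plain-name genes and of fewer copies. RefSeq (GRCr8) gave a 300-base window, 250 bases before and 50 after the annotated start, for 111 members, of which 34 were plain-name genes and 73 copies. The longest run of C and T that touched the 20 bases either side of the start had a median length of 12 in plain-name genes, 6 in copies and 5 over all 33469 windows. It was 8 or longer in 26 of 34 plain-name genes (76.5%), 27 of 73 copies (37.0%) and 21.0% of all windows. The genes below are shown because the results that follow turn on them or on their copies, as 30 bases either side of the start with the run in capitals.
Rpl19: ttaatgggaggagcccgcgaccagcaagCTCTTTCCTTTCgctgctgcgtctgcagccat
Rpl35: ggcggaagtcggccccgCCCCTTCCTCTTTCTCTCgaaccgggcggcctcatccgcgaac
Rpl4: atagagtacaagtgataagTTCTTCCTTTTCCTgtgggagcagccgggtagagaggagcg
Rpl23: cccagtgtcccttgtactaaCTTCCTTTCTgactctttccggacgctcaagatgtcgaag
Rps28: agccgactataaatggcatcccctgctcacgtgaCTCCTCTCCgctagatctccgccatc
Rps23: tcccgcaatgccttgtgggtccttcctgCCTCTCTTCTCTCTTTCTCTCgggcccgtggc
Rps23l1: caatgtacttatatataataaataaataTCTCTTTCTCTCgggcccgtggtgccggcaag
Rpl22l2: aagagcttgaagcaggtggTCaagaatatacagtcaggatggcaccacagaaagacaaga
These windows lie at chr10:83519034-83519093 on the plus strand (Rpl19), chr3:43165892-43165951 on the minus strand (Rpl35), chr8:73566447-73566506 on the plus strand (Rpl4), chr10:83272155-83272214 on the minus strand (Rpl23), chr7:15311304-15311363 on the minus strand (Rps28), chr2:23814487-23814546 on the plus strand (Rps23), chr14:42399468-42399527 on the plus strand (Rps23l1) and chr3:137447291-137447350 on the plus strand (Rpl22l2). The windows of Rps23 and its copy Rps23l1 share an unbroken stretch of 22 bases that holds the end of the run. Rpl22l2 has a run of 2.

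Short motifs were searched on both strands of the 300 bases. CTCTTTC was found in 35.3% of plain-name windows, 13.7% of copies and 7.91% of all windows. CCGGAAG, the core that ETS factors bind, was in 26.5%, 5.48% and 8.75% in that order. CGCGAGA was in 26.5% of plain-name windows, in 0 of 73 copies and in 2.39% of all. AAGATGG, which contains the start codon of many ribosomal protein mRNAs, was in 26.5%, 17.8% and 7.01%. TATAAA was in 8.82%, 21.9% and 14.2%, most often in copies. CACGTG, the E-box that Myc binds, was in 8.82% of plain-name windows, 0 of 73 copies and 6.42% of all. The motifs were chosen after the sequences were seen, and a match is a description of letters only.

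The SD of the plain-name genes over the 30 arrays had a median of 0.14, against 0.27 for all 10918 genes tested, 0.26 for like names and 0.27 for pseudogene names. The mean signals of the kinds differed too, with a median of 10.92 for plain names, 4.18 for like names and 2.61 for pseudogene names. Among genes at or above the 90th percentile of signal the median SD was 0.12 for 30 plain-name genes, against 0.17 for 1038 genes that are no members. Below it the order turned, with 0.37 for 12 plain-name genes and 0.28 for 9745 others. Rpl27a (SD 0.57), Rps16 (0.45) and Rpl28 (0.42), plain-name genes named after their values were seen, varied more than most genes. Their clusters were dim for plain-name genes, with means of 3.99, 7.06 and 2.67, where the filter lay at 2.33. Rps28, a small-subunit protein near the mRNA exit, had an SD of 0.04, the lowest of all 10918 genes. Its lowest, median and highest signals were 12.04, 12.07 and 12.11 in RYGB ileum and 12.03, 12.10 and 12.15 in Sham_RYGB ileum. They were 11.98, 12.03 and 12.11 in VSG, 12.06, 12.08 and 12.12 in Sham_VSG_PF, and 12.04, 12.05 and 12.12 in Sham_VSG ileum. The 5 groups overlapped throughout. A second cluster named for Rps28, with a mean of 2.76, differed by -0.34 between VSG and Sham_VSG (adjusted p = 0.812 in limma). Rps29 (SD 0.05), Rpl22 (0.06) and Rpl41 (0.08) were next among the members. Rps28, Rps29, Rpl22 and Rpl41 were singled out after their values were seen.

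The widest spread was seen in 4 other members. Rpl10l1 had an SD of 0.85 and ran from 2.64 through a median of 3.78 to 5.42 in RYGB, against 2.04, 4.51 and 6.21 in Sham_RYGB. Rpl13, a large-subunit protein whose cluster here lay just above the filter, had an SD of 0.64 and ran over 1.83, 2.40 and 3.05 in RYGB, against 1.37, 2.42 and 3.47 in Sham_RYGB. A further cluster names Rpl13 together with other genes and was left out by the rule, so this spread is that of 1 dim cluster. Rpl39l1 had an SD of 0.63 and Rps26l1 of 0.59. In each of these 4 genes the range of the arrays within every group was wider than the largest difference between group means.

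No ribosomal protein gene passed the test between RYGB and Sham_RYGB ileum. With limma and Benjamini-Hochberg adjustment over all genes, 0 of 135 members passed an adjusted p of 0.05, where 20 of 10918 genes (0.183%) did. At an unadjusted p below 0.05 there were 6 members, 4.44% of them, against 13% of all genes. Of the 6, 1 was higher and 5 lower, where 6.63% and 6.32% of all genes were. Most plain-name genes had slightly lower means: 5 of 42 were higher after RYGB (48% of all genes were) and 37 lower, with a median difference of -0.08, against -0.01 over all genes. With each array centred on its median, 19 of 42 were higher and 63.1% of all genes, with medians of -0.0023 and 0.07. For 35 of the 42 (83.3%, against 71.7% of all genes) the 95% confidence interval lay within a change of 1.5-fold in either direction. Like names had a median of -0.05 (42 of 70 lower) and pseudogene names of 0.01 (10 of 20 lower).

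**Figure D1:**
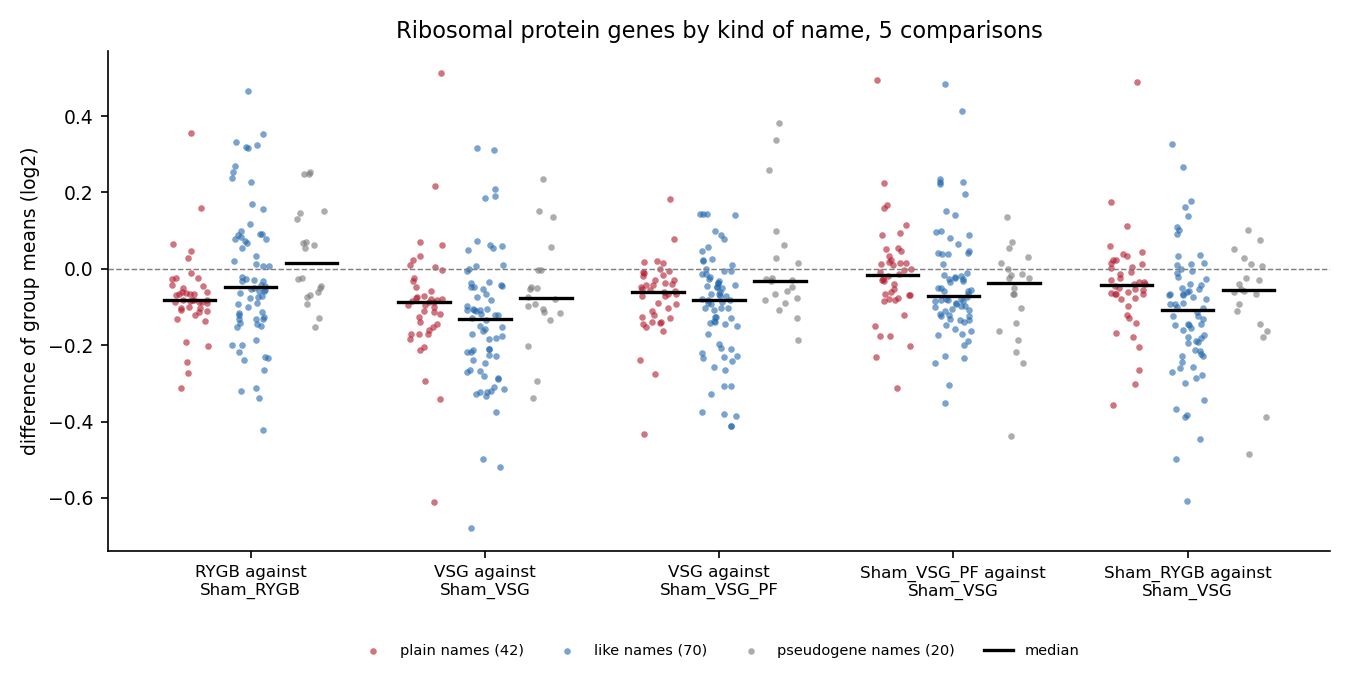
Difference between group means (log2, vertical axis) of each tested plain-name gene and copy in 5 comparisons, by kind of name. Red points are 42 plain names, blue points 70 like names, grey points 20 pseudogene names, and black bars medians. The tested paralogs and Rps19bp1 are not drawn. The medians lie between -0.13 and 0.01, and no point passed an adjusted p of 0.05. The highest red point in each of the 3 comparisons against Sham_VSG is Rpl30.

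The member with the smallest p after RYGB was Rps23l1, the copy of the decoding-centre protein Rps23 shown above. Its lowest, median and highest signals were 8.72, 9.07 and 9.38 in RYGB, against 9.25, 9.29 and 9.64 in Sham_RYGB ileum. RYGB arrays lay mostly lower, with overlap at the top, and the difference was -0.31 (95% interval -0.55 to -0.07, adjusted p = 0.270 in limma). Rps23 itself, named after its values were seen, had 11.13 ± 0.08 in RYGB and 11.27 ± 0.08 in Sham_RYGB (SD, n = 6 each). Rpl31l10, a copy of Rpl31, had 7.17, 7.23 and 7.31 in RYGB, against 7.38, 7.40 and 7.70 in Sham_RYGB. These groups did not overlap, as was so for 1 of 135 members and for 0.705% of all genes, and the difference of -0.23 had an adjusted p of 0.288 in limma.

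Rpl23a, at the peptide exit where the signal recognition particle docks, ran the other way. It had 7.13, 7.43 and 7.84 in RYGB, against 6.75, 7.11 and 7.38 in Sham_RYGB, a difference of 0.35 (0.04 to 0.67, adjusted p = 0.340 in limma) with overlapping groups. The largest differences of the means belonged to copies. Rpl32l1 was 0.47 higher (adjusted p = 0.512, limma), with 1.90, 2.38 and 3.68 in RYGB and 1.42, 2.40 and 2.70 in Sham_RYGB. Rpl10l1 was 0.42 lower on the means, with the wide ranges given above.

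VSG and Sham_VSG ileum gave no call either. In limma 0 of 135 members passed against Sham_VSG, as did 0 of 10918 genes (0%). At an unadjusted p below 0.05 there were 18 members (13.3%, against 6.05% of all genes), 1 higher and 17 lower, where 2.02% and 4.04% of all genes were. Of the 135 members 25 had a higher mean in VSG (43.5% of all genes had) and 110 a lower one, with a median of -0.11, against -0.03 over all genes. The median was -0.09 for plain names (34 of 42 lower), -0.13 for like names (58 of 70) and -0.08 for pseudogene names (16 of 20). With each array centred on its median, 12 of 42 plain-name genes were higher and 57.6% of all genes, with medians of -0.03 and 0.03. The interval stayed within 1.5-fold for 36 of 42 plain-name genes (85.7%, against 76.5% of all genes).

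Named members of this comparison were mostly copies. Rpl22l2 had 3.63, 3.86 and 4.93 in VSG, against 4.28, 4.50 and 4.74 in Sham_VSG. All but 1 VSG array lay below the Sham_VSG arrays, and the difference was -0.52 (-0.89 to -0.15, adjusted p = 0.749 in limma). Rpl10al1 had 8.90, 9.22 and 9.55 in VSG, against 9.31, 9.57 and 9.75 in Sham_VSG, a difference of -0.32 (adjusted p = 0.775, limma) with overlapping groups. Rpl29l2 had the largest decrease of the means, -0.68 (-1.26 to -0.10, adjusted p = 0.788, limma), with 2.72, 3.13 and 4.00 in VSG and 3.27, 3.87 and 4.57 in Sham_VSG.

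**Figure D2:**
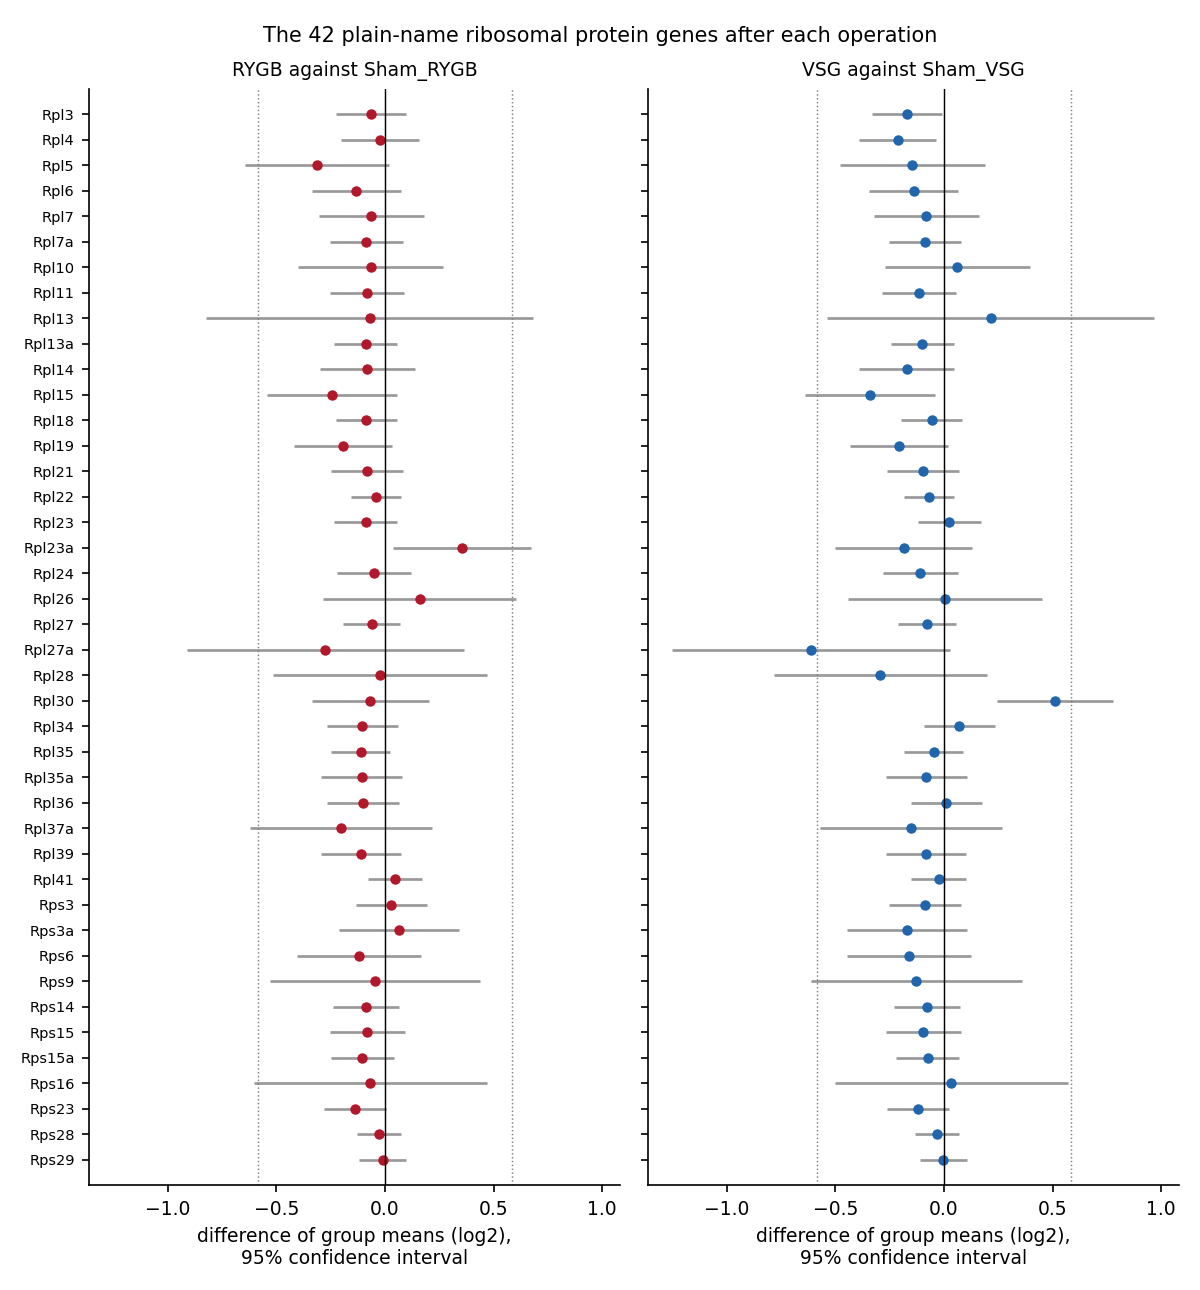
Difference between group means (log2, horizontal axis) with its 95% confidence interval for each of the 42 plain-name genes, RYGB against Sham_RYGB on the left and VSG against Sham_VSG on the right; dotted lines mark 1.5-fold either way. Intervals stay inside the dotted lines for 35 genes on the left and 36 on the right, and the wide ones belong to genes such as Rpl13 and Rpl27a.

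Set against Sham_VSG_PF ileum, no member passed in VSG either. In limma 0 of 135 members and 0 of 10918 genes (0%) passed, and 5 members had an unadjusted p below 0.05 (3.70%, against 5.94% of all genes), 0 higher and 5 lower, where 2.56% and 3.39% of all genes were. The median was -0.07 over the members and -0.02 over all genes. Of the plain-name genes 6 of 42 were higher (45.3% of all genes were), with a median of -0.06. Rpl35l4 had 2.90, 3.14 and 3.57 in VSG, against 3.02, 3.51 and 3.89 in Sham_VSG_PF, a difference of -0.31 (adjusted p = 0.775, limma). Rpl29l5 and Rps28l1 differed by -0.31 and -0.26, each with an adjusted p of 0.780 in limma. The widest differences were 0.38 for Rpl7-ps3 and -0.43 for Rpl27a, whose VSG and Sham_VSG_PF arrays overlapped over most of their range.

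Paired feeding after the sham operation was the comparison with the fewest members at a low p. Between Sham_VSG_PF and Sham_VSG ileum, limma called 0 of 135 members and 0 of 10918 genes (0%), and 1 member had an unadjusted p below 0.05 (0.741%, against 5.33% of all genes). Plain-name genes were split, 18 higher and 24 lower, with a median of -0.02, and 46.8% of all genes were higher. With each array centred on its median the split was 23 higher and 19 lower, with a median of 0.01. Rpl4, a protein of the exit tunnel wall, had 9.78, 9.88 and 10.15 in Sham_VSG_PF, against 9.90, 10.10 and 10.24 in Sham_VSG, a difference of -0.18 (adjusted p = 0.927, limma). Rpl32l3 was 0.48 higher and Rps10-ps21 0.44 lower on the means, with adjusted p of 0.927 and 0.947 in limma.

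The sham operations were compared with each other as a measure of how far ribosomal protein genes differ without either operation. Between Sham_RYGB and Sham_VSG, limma called 0 of 135 members and 0 of 10918 genes (0%), and 10 members had an unadjusted p below 0.05 (7.41%, against 4.71% of all genes), 1 higher and 9 lower, where 1.69% and 3.01% of all genes were. Of the 135 members 33 were higher (44.5% of all genes were). The median was -0.07 over the members, where RYGB against its own sham gave -0.06. Rpl10al1 was lower by 0.30 in Sham_RYGB, with 8.87, 9.29 and 9.49 there and 9.31, 9.57 and 9.75 in Sham_VSG (adjusted p = 0.999, limma). Rpl30l2 differed by -0.23 and Rpl28l3 by -0.61, each with an adjusted p of 0.999 in limma.

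No difference between the effects of RYGB and VSG was detected in these genes. The RYGB effect minus the VSG effect had an adjusted p above 0.05 in limma for all 135 members and all 10918 genes (0% called), and 4 members had an unadjusted p below 0.05, against 5.72% of all genes. The median was 0.06 over the members and 0.01 over plain-name genes and over all genes.

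Rpl30, a large-subunit protein that also binds selenoprotein mRNAs, stood apart from the other plain-name genes in the comparisons with Sham_VSG. Its lowest, median and highest signals were 11.32, 11.51 and 11.65 in VSG, 11.37, 11.48 and 11.55 in Sham_VSG_PF, and 10.50, 11.05 and 11.28 in Sham_VSG ileum. All 6 Sham_VSG arrays lay below every VSG and every Sham_VSG_PF array, where 0.275% and 0.302% of all genes had groups that did not overlap. In the bypass groups it had 11.10, 11.35 and 11.79 in RYGB and 11.03, 11.53 and 11.62 in Sham_RYGB. The difference was 0.51 for VSG against Sham_VSG (0.24 to 0.78, adjusted p = 0.605), 0.50 for Sham_VSG_PF against Sham_VSG (adjusted p = 0.553) and 0.49 for Sham_RYGB against Sham_VSG (adjusted p = 0.790), all in limma. These 3 comparisons share the same 6 Sham_VSG arrays and are not separate evidence.

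The clusters of Rpl30 did not all differ in 1 direction. The array held 5 clusters named for Rpl30 alone, a pair of them with the same values on every array. The second brightest had 8.70, 9.03 and 9.27 in VSG, against 8.95, 9.27 and 9.84 in Sham_VSG, a difference of -0.30 in the opposite direction. At an unadjusted p below 0.05 in limma there were 2 of the 5 clusters, this one and the brightest (6.05% of all genes). The pair of clusters differed by 0.15 and the dimmest by -0.13 between the same groups. Between Sham_VSG_PF and Sham_VSG the pair had 5.47 ± 0.13 and 4.98 ± 0.46 (SD, n = 6 each), a difference of 0.49 (0.08 to 0.91, adjusted p = 0.892 in limma) close to that of the brightest cluster. The second brightest differed there by -0.12 and the dimmest by -0.25. With the mean of a gene's clusters in place of the brightest, Rpl30 differed by 0.08 between VSG and Sham_VSG and by 0.22 between Sham_VSG_PF and Sham_VSG.

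**Figure D3:**
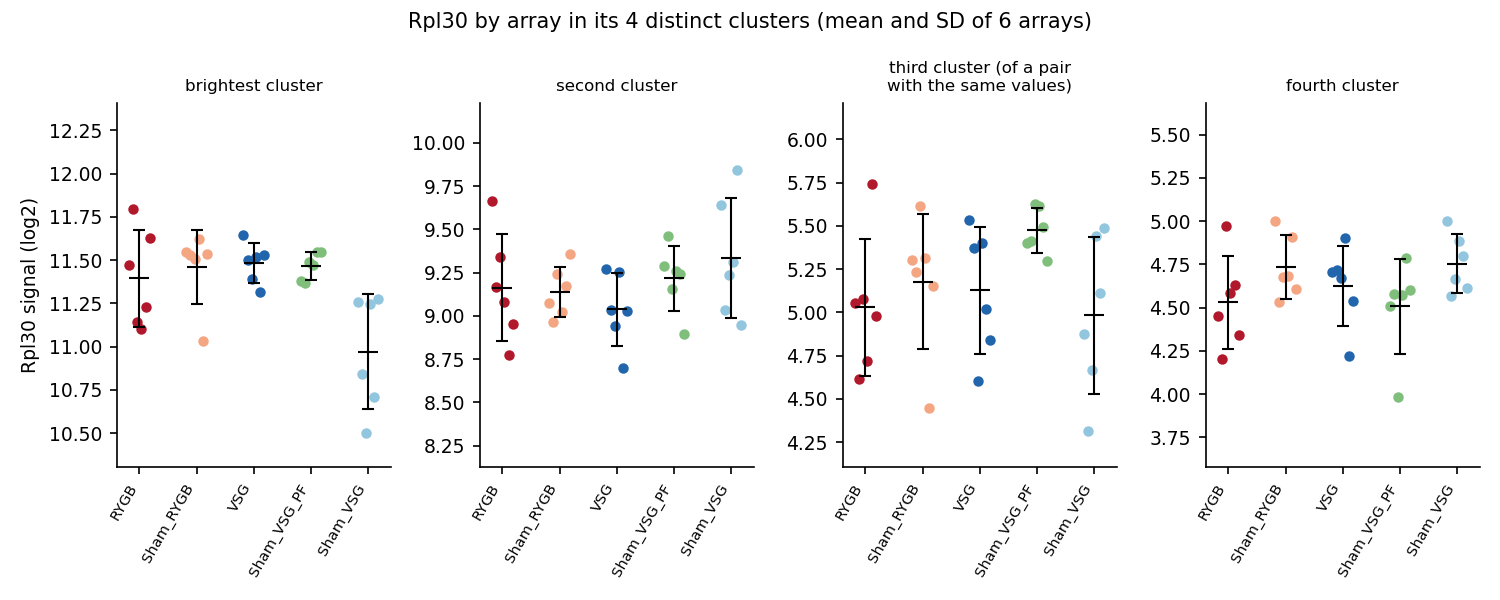
Signal of Rpl30 (log2, vertical axes of equal length) on each array, by group, in its 4 distinct clusters; points are arrays and bars the mean and SD of 6. Sham_VSG lies lowest in the brightest cluster, at 10.97 ± 0.33, and highest in the second, at 9.33 ± 0.35.

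Repeated clusters of the members, with Rpl30 among them, gave a gauge of how well such small differences hold. There were 13 symbols with more than 1 cluster, and 6 pairs of their clusters held the same values. With such clusters counted once, 12 symbols had more than 1 cluster. Between VSG and Sham_VSG the clusters of 8 of the 12 all differed in 1 direction, and between RYGB and Sham_RYGB those of 7. The spread between clusters of a symbol had a median of 0.13 and 0.11 (log2) in these comparisons, wider than the median difference of the plain-name genes. Rpl39, which lines the exit tunnel, had 6 clusters, 5 of them distinct, and all had lower means in both operations, with differences of -0.20 to -0.08 in RYGB and -0.13 to -0.05 in VSG.

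By role, the proteins that line the tunnel or meet the growing chain at its exit gave no call. Of 8 listed, 6 had a cluster named for them alone and were tested, and limma called 0 of these in each of the 5 comparisons. At an unadjusted p below 0.05 there was 1 in RYGB (13% of all genes), the Rpl23a given above, whose interval of 0.04 to 0.67 does not leave out a 1.5-fold increase. There was 1 in VSG (6.05% of all genes) and 1 between the shams (4.71%), Rpl4 in both. Rpl19 had 10.33, 10.46 and 10.58 in RYGB, against 10.35, 10.68 and 10.87 in Sham_RYGB, a difference of -0.19 (-0.42 to 0.03, adjusted p = 0.462 in limma). Rpl35 had 11.53, 11.64 and 11.73 in RYGB, against 11.63, 11.73 and 11.90 in Sham_RYGB, a difference of -0.11. In VSG Rpl4 had 9.70, 9.85 and 10.07, against 9.90, 10.10 and 10.24 in Sham_VSG, a difference of -0.21 (-0.39 to -0.03, adjusted p = 0.788 in limma). Rpl26 had intervals of -0.28 to 0.61 in RYGB and -0.44 to 0.45 in VSG, of which the first does not leave out a 1.5-fold increase.

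Rpl5 and Rpl11, which with 5S rRNA bind Mdm2 and so link ribosome assembly to p53, and Rpl23, which binds Mdm2 too, gave 0 calls of 3 in every comparison by limma and 0 at an unadjusted p below 0.05. Rpl11 had 10.47, 10.58 and 10.74 in RYGB, against 10.46, 10.69 and 10.83 in Sham_RYGB, a difference of -0.08 (-0.25 to 0.09). Rpl23 had 11.63, 11.78 and 11.88 in RYGB, against 11.75, 11.87 and 11.97 in Sham_RYGB, a difference of -0.09. Rpl5 was measured less precisely, on a dim cluster with a mean of 3.82. It had a difference of -0.31 (-0.65 to 0.02) in RYGB, which does not leave out a 1.5-fold decrease. Among 6 tested p53 targets limma called 0 in RYGB and 0 in VSG, with 4 and 3 higher, and 0 had an unadjusted p below 0.05 in either.

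Rps6, the small-subunit protein that S6 kinases phosphorylate, had 6.31, 6.68 and 6.88 in RYGB and 6.17, 6.89 and 6.96 in Sham_RYGB, a difference of -0.12 (-0.41 to 0.16). In VSG it had 6.40, 6.67 and 7.10, against 6.66, 6.91 and 7.04 in Sham_VSG, a difference of -0.16 (-0.45 to 0.13). The groups overlapped in both. The paralogs Rpl7l1 and Rps4y2 differed by -0.08 and 0.09 in RYGB and by -0.06 and 0.18 in VSG, with adjusted p of 0.760 or more in limma. Of 10 genes mutated in Diamond-Blackfan anaemia, a human disorder of red cell formation, 4 had a cluster named for them alone and were tested. Among these limma called 0 in every comparison, with 0 at an unadjusted p below 0.05.

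Genes that work with the ribosomal proteins mostly had lower means too, except those of mTORC1 and TOP control in VSG. None of them passed in RYGB or VSG. They are set here beside the shares of all genes, 48% higher in RYGB and 43.5% in VSG. Of 24 factors of ribosome assembly and rRNA synthesis 23 were lower in RYGB, with a median of -0.18, and limma called 0. At an unadjusted p below 0.05 there were 3 of 24 in RYGB (13% of all genes) and 1 in VSG (6.05%). Polr1b, a subunit of RNA polymerase I, had 4.26 ± 0.44 in RYGB and 4.71 ± 0.47 in Sham_RYGB (SD, n = 6 each; adjusted p = 0.345 in limma). In VSG all 24 were lower, with a median of -0.10. The difference in this list between Sham_VSG_PF and Sham_VSG was -0.14 (23 of 24 lower) and between VSG and Sham_VSG_PF 0.02 (10 of 24 lower). Between Sham_RYGB and Sham_VSG it was -0.06 (18 of 24 lower), where 44.5% of all genes were higher.

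Of 63 mitochondrial ribosomal proteins, which build a separate ribosome, 52 were lower in RYGB (median -0.09) and 55 in VSG (median -0.10), and limma called 0 in both. Between Sham_RYGB and Sham_VSG, where neither group had RYGB or VSG, 52 of 63 were lower as well (median -0.09). At an unadjusted p below 0.05 there were 13 of 63 in RYGB (13% of all genes) and 10 in VSG (6.05%). Mrpl55 had the smallest p, with 6.39 ± 0.20 in RYGB and 6.80 ± 0.19 in Sham_RYGB (SD, n = 6 each; adjusted p = 0.126 in limma). The 10 tested translation factors whose mRNAs carry the TOP motif had medians of -0.03 in RYGB (7 lower) and -0.11 in VSG (9 lower). The 13 genes of mTORC1 and TOP control had medians of -0.07 in RYGB (10 lower) and 0.01 in VSG (6 lower, 7 higher). Rplp0, Rplp2 and Rpsa, ribosomal proteins with other names, differed by -0.03, -0.06 and -0.11 in RYGB and by -0.09, -0.02 and -0.03 in VSG. All 16 tested proliferation genes had lower means in RYGB (median -0.34) and in VSG (median -0.19). Between Sham_RYGB and Sham_VSG 15 of 16 were lower (median -0.11), as were 8 of 10 of the translation factors (median -0.05). Of the mTORC1 and TOP control genes 6 of 13 were lower there (median 0.01). In these 4 lists limma called 0 in both operations, and 0, 1, 0 and 7 had an unadjusted p below 0.05 in RYGB, against 0, 1, 0 and 0 in VSG, beside the same 13% and 6.05% of all genes.

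The plain-name genes were higher on arrays with more signal of B and plasma cell markers. Their mean ran from 9.37 to 9.60 in the 11 arrays high in these markers and from 9.19 to 9.43 in the 19 low ones. In a limma fit with a mean per group and the mean of the 7 tested markers as a slope, which was added after the data were seen, all 42 plain-name genes had a positive slope, with a median of 0.05 per log2 unit of the markers. Of these 26 passed an adjusted p of 0.05 (61.9%), against 39.2% of all genes, of which 18.6% were positive and 20.6% negative. Rpl35a had the smallest p, with a slope of 0.07 (adjusted p = 6.1e-05). Rps16 had a slope of 0.20 (adjusted p = 0.00029). Among like names 16 of 70 passed, 14 with a positive slope, and among pseudogene names 3 of 20. Rpl10l1 had a negative slope of -0.28 (adjusted p = 0.0082). Rpl35a and Rps16 were named after their values were seen.

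No member passed within either kind of array, each of which holds fewer arrays and a narrower range of the markers. In the low arrays the slope of Rpl35a was 0.09 with a standard error of 0.17, so a slope of that size could not be called there. In the 19 arrays low in the markers limma called 0 of 42 plain-name genes, 0 of 135 members and 0 of all genes (0%). At an unadjusted p below 0.05 there were 0 of 42 plain-name genes and 4 of 135 members, against 509 of 10918 genes. The slope of the plain-name genes had a median of 0.07 there and was positive in 33 of 42. In the 11 high arrays limma called 0 of 135 members and 1.94% of all genes. An unadjusted p below 0.05 was found there for 9 of 135 members, against 2014 of 10918 genes. In these arrays the slope of the plain-name genes had a median of 0.04 and was positive in 31 of 42. The arrays of the 2 kinds also differed in epithelial markers, with a mean of 9.72 ± 0.13 in the 11 and 10.02 ± 0.07 in the 19 (SD). The mean of the T cell markers ran from 7.30 to 8.29 in the 11 and from 5.98 to 7.57 in the 19. That of the proliferation genes ran from 6.77 to 7.34 in the 11 and from 6.27 to 7.15 in the 19. The part of any cell type in the slopes was not tested.

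Group means of the B and plasma cell markers were lower in some comparisons, while the marker means of the arrays overlapped between the groups. All 7 tested B and plasma cell markers had lower means in RYGB (median difference -1.34) and in VSG (median -0.76), with 0 called by limma and 0 and 1 at an unadjusted p below 0.05. They were lower in 7 of 7 between Sham_VSG_PF and Sham_VSG as well (median -0.64), with 0 called. In that comparison 24 of 42 plain-name genes were lower. Between VSG and Sham_VSG_PF 7 of 7 markers were lower (median -0.12), with 0 called, and 36 of 42 plain-name genes were lower. The mean of the markers ran from 4.11 to 7.39 in RYGB, 4.27 to 8.14 in Sham_RYGB, 4.00 to 8.13 in VSG, 4.48 to 7.97 in Sham_VSG_PF and 4.48 to 8.07 in Sham_VSG. T cell markers were lower in 5 of 5 in RYGB (median -0.47) and in VSG (median -0.47), with 0 called and 0 at an unadjusted p below 0.05. They were lower in 5 of 5 between Sham_RYGB and Sham_VSG too (median -0.42). Their part in the differences was not tested.

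With the B and plasma cell marker mean as a covariate, the median of the plain-name genes was -0.02 in RYGB and -0.04 in VSG, in place of -0.08 and -0.09. With only the arrays low in these markers it was 0.0026 in RYGB (5 arrays) against Sham_RYGB (3 arrays), and -0.10 in VSG (4 arrays) against Sham_VSG (3 arrays). Of those 5 RYGB arrays 3 are the ones high in fat cell markers, with plain-name means of 9.39, 9.37 and 9.32, and the other 2 had 9.30 and 9.22. The 3 Sham_RYGB arrays had 9.35, 9.30 and 9.28. Without the arrays high in fat cell markers the median was -0.11 in RYGB and -0.12 in VSG.

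**Figure D4:**
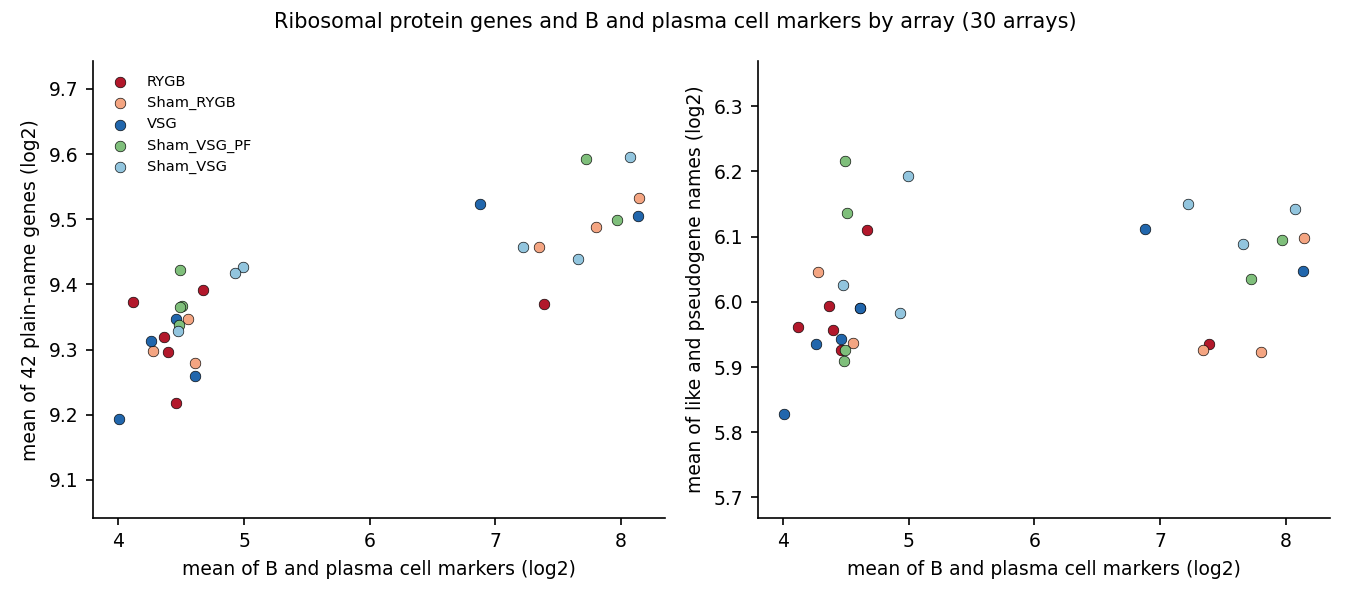
Mean signal of the 42 plain-name genes (left) and of the copies that were tested (right), in log2, against the B and plasma cell marker mean (log2) on each of the 30 arrays, coloured by group. The 11 arrays high in the markers lie at 9.37 to 9.60 on the left and the other 19 at 9.19 to 9.43; on the right the ranges are 5.92 to 6.15 and 5.83 to 6.22.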

How the data were processed

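Total RNA from ileum went through Ovation PicoSL amplification and was labelled with biotin, per the labels' protocols. The authors deposited log2 signals, made by RMA with version 1.3.0.187 of Affymetrix Expression Console, per the submitters' processing notes. RMA quantile normalizes the arrays, so a shift shared by most genes cannot be seen. Which arrays were normalized together is not given in the sources used here.

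Of 36685 transcript clusters 14824 carried 1 symbol, 829 several and 21032 none. The brightest cluster was kept for each of 14557 symbols, and the genes dimmer than the 25th percentile of the means (log2 2.33) were dropped, which left 10918. All 30 arrays were fitted with limma 3.58.1 in R 4.3.3 with a mean per group (25 residual degrees of freedom). P-values are two-sided and adjusted by Benjamini and Hochberg over all genes tested, at a threshold of 0.05. The script was tested on simulated data. Figures used matplotlib 3.10.9. Precision is limited by the number of arrays: the median 95% interval reached 0.31 to either side over all genes and 0.18 for plain-name genes.

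Members and gene lists were chosen with earlier results of these data known. Named were, per comparison, the 3 members with the smallest p and the largest difference in each direction, the 4 with the largest SD, the role lists, and up to 3 genes of other lists; exceptions are stated. Alternatives were other normalizations, filters, moderation, weights, a replicate block, fits of only the groups compared, the mean of a gene's clusters, marker covariates and leaving out each array. Promoter windows are RefSeq's (GRCr8).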

Additional observations from a re-analysis of the deposited data

Results flagged for a closer look

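In 12 of 170 sets of 6 arrays examined, 1 array lay far from the other 5 by Dixon's test, and chance alone marks about 1 in 20 sets not picked by their values. The sets were those of the 32 members named by the rule and of means over genes. Many of these members were picked for their values in the same arrays, so that share need not hold here. Replicate 1 of RYGB was high in Rpl10al1 (9.599, the others 9.10 to 9.26), in Rps28l1 (3.37, the others 3.00 to 3.11) and in the mean of the copies tested (6.11, the others 5.93 to 5.99). This array was also among the 4 high in fat cell markers. Replicate 1 of VSG, another of those 4, was high in Rpl22l2 (4.926, the others 3.63 to 3.97). The part of the fat cells in these values was not tested.

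Replicate 4 of Sham_VSG was high in Rpl23 (11.952) and Rpl7-ps3 (4.264) and low in Rps4y2 (6.739, the others 7.77 to 8.28). Replicate 6 of Sham_RYGB was high in Rpl29l2 (4.43) and low in Rps6 (6.166, the others 6.75 to 6.96). Replicate 5 of Sham_RYGB was low in Rpl30 (11.034, the others 11.51 to 11.62). Replicate 3 of Sham_RYGB was high in Rpl39l1 (5.203, the others 2.59 to 3.52). Replicate 2 of Sham_VSG_PF was low in Rpl23 (11.593, the others 11.84 to 11.96).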

How the results depend on the processing

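In all 6 comparisons 0 members passed under every alternative run and with each array left out. The replicate block also gave 0 calls in each. Replicate numbers showed no steady pairing over the comparisons: the correlation of same-numbered deviations ran from -0.572 to 0.677. At most 3 of 6 arrays of a group were most like their own number. These 3 were in VSG against Sham_VSG, where the correlation ran from -0.18 to 0.677, so a pairing there is not excluded. The median of the plain-name genes in RYGB was 0.0026 with only the arrays low in B and plasma cell markers, against -0.08 in the fit reported, ran from -0.12 to 0.0026 over the alternatives, and from -0.11 to -0.05 with each array left out. It was -0.0023 with arrays centred on their medians, which turned the median of all members in RYGB to 0.02, against -0.06. Medians near 0 turned sign elsewhere too. That of the plain-name genes between Sham_VSG_PF and Sham_VSG was -0.02 and became 0.01 with centred arrays, the B and plasma cell covariate or only the arrays low in these markers. That of the RYGB minus the VSG effect was 0.01 and reached -0.02, turning under 2 of 16 alternatives and with 11 of 24 arrays left out. The causes were not tested. Rpl30 ran from 0.08 (mean of its clusters) to 0.61 in VSG against Sham_VSG over the alternatives and from 0.42 to 0.57 with each array left out. Its lowest adjusted p in limma was 0.264, with array quality weights. Quantile normalization upstream limits what can be said of shifts shared by most genes.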
